A study of Homo sapiens with 12 samples.

Results

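The genes described here encode 10 interleukin receptor chains: *IL7R*, *IL1R1*, *IL1RAP*, *IL1RL1*, *IL4R*, *IL10RB*, *IL15RA*, *IL17RA*, *IL20RB* and *IL18R1*. They are 10 of the 18417 genes that have a feature with a single gene symbol on the Affymetrix Human Gene 1.0 ST array, and each has 1 such feature. They were chosen by name, after *IL7R* and *IL1RAP* had been seen to be lower following *LAPTM4B* knockdown in cells without serum. That contrast is therefore described for the 10 genes and not tested.

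RNA was measured in Calu-6 cells, a human lung cancer line, cultured in DMEM/F12. All cells were transfected with Dharmacon siRNA using Lipofectamine RNAiMAX. The control groups received scrambled siRNA (siControl) and the knockdown groups received *LAPTM4B*-specific siRNA (siLAPTM4B). One day later the cells were washed and given medium with 10% or 0% FBS, and total RNA was isolated 48 h after that change and 72 h after transfection. The 4 groups (siControl with 10% FBS, siLAPTM4B with 10% FBS, siControl without serum and siLAPTM4B without serum) held 3 biological replicates each, giving 12 arrays. All arrays come from a single cell line, with a single pooled siRNA reagent against *LAPTM4B*.

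Interleukins are secreted signals that act through paired receptor chains. One chain usually binds the ligand, and its partner, often shared between several interleukins, completes the signalling complex. Receptors of the IL-7, IL-4, IL-15 and IL-10 families use JAK kinases and STAT factors, whereas IL-1 family receptors use MYD88 and IRAK kinases, and IL-17 receptors use the adaptor encoded by *TRAF3IP2*, toward NF-κB. *IL7R* is best known from lymphocytes, where IL-7 supports their survival, while *IL1RAP*, *IL4R*, *IL10RB* and *IL17RA* are found on many cell types, including airway epithelium.

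The promoters of *IL7R* and *IL1RAP*, the pair by which the genes were chosen, are shown because they are unlike in sequence although both genes followed the same order of groups. They are the 250 bases upstream of the start site in RefSeq (GRCh38.p14), 5′ to 3′ on the gene's strand, at chr5:35856641-35856890 for *IL7R* and chr3:190513835-190514084 for *IL1RAP*, both on the plus strand. Capitals mark the letters TATAAA where they stand on the gene's strand.
IL7R: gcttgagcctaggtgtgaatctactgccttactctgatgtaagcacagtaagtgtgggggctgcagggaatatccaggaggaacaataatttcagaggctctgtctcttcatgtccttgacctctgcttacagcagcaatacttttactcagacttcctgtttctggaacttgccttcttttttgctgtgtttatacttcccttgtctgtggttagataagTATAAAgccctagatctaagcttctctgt
IL1RAP: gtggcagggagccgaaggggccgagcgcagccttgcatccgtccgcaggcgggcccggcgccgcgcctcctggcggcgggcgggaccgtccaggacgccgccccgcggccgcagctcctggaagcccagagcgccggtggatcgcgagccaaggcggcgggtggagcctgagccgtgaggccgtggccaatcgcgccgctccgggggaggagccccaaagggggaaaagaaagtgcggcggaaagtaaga
The *IL7R* stretch held TATAAA at −29, counting back from the start site at its first letter, and again on the opposite strand at −60. The letters TATAAA occur on either strand in 10.7% of the 35116 upstream stretches of this length. The *IL7R* stretch was 43.6% G or C, with 0 CpG pairs, against a median of 58% over all of them. The *IL1RAP* stretch was 74.8% G or C, with 33 CpG pairs. It held no TATAAA. Neither stretch held TGANTCA, the letters of AP-1 sites, on either strand. Neither held TTCNNNGAA, the letters of STAT sites. Each of these occurs in 6.57% of all stretches. Of the 10 genes, 9 had a RefSeq promoter entry, with 17 start sites among them.

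*LAPTM4B* itself had a log2 signal of 11.91 ± 0.04 (SD, n = 3) in siControl and 10.49 ± 0.05 in siLAPTM4B cells without serum, and of 11.77 ± 0.02 and 10.01 ± 0.02 with 10% FBS. The knockdown thus left 0.373 and 0.297 times the control signal in the respective media. No 2 arrays held identical values, and the lowest correlation between arrays of a group, over all features, was 0.9967.

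The deposited values are log2 signals after RMA and carry no detection call. As a stand-in, a gene was counted as above background where its mean over the 12 arrays exceeded 6.86, the 95th percentile of the 381 olfactory receptor features. By this measure *IL7R*, *IL4R*, *IL17RA*, *IL10RB*, *IL15RA* and *IL1RAP* were above background on 12 of 12 arrays, as were 75.4% of all genes by their means. *IL20RB* exceeded the level on 1 array, and *IL1R1*, *IL1RL1* and *IL18R1* on 0 arrays. Signals of different features are not compared with each other, since each has its own probes.

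*IL7R* (feature 8104901), the chain that binds IL-7 and also forms the TSLP receptor, varied most among the 10 genes, over 2.21 log2 units from lowest to highest array. With 10% FBS its log2 signals were 11.44, 11.42 and 11.44 in siControl and 11.23, 11.29 and 11.33 in siLAPTM4B cells. Without serum they were 10.26, 10.33 and 10.42 in siControl and 9.23, 9.32 and 9.37 in siLAPTM4B cells. The 4 groups followed each other in this order with no overlap between neighbours.

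*IL1RAP* (feature 8084794), the shared accessory chain of the IL-1, IL-33 and IL-36 receptors, followed the same order over 1.05 log2 units. With 10% FBS its signals were 8.03, 8.08 and 8.21 in siControl and 7.75, 7.99 and 7.72 in siLAPTM4B cells. Without serum they were 7.72, 7.59 and 7.72 in siControl and 7.16, 7.21 and 7.32 in siLAPTM4B cells. The siLAPTM4B arrays with serum and the siControl arrays without serum were neighbours that overlapped, while the other neighbouring groups did not.

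The ligand-binding chains that pair with *IL1RAP*, and their relative for IL-18, gave low and flat signals. *IL1R1* (feature 8043995), which binds IL-1, lay between 5.33 and 5.55 on the 12 arrays. *IL1RL1* (feature 8044021), the receptor of IL-33, lay between 5.43 and 5.63, and *IL18R1* (feature 8044035), the receptor of IL-18, between 5.24 and 5.46. All neighbouring groups of these 3 genes overlapped. *IL1R2*, the decoy receptor, *IL1RL2*, the IL-36 receptor, and *IL18RAP*, the accessory chain for IL-18, were also below the background level, with means of 6.56, 6.29 and 5.36. *SIGIRR*, an inhibitory chain of the family, was above it at 9.41, as was *IL1RAP*.

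*IL4R* (feature 7994280), the chain common to the IL-4 and IL-13 receptors, separated the arrays by medium alone. With 10% FBS its signals were 10.56, 10.59 and 10.61 in siControl and 10.62, 10.61 and 10.52 in siLAPTM4B cells. Without serum they were 10.24, 10.22 and 10.21 in siControl and 10.16, 10.26 and 10.24 in siLAPTM4B cells. The siRNA groups overlapped within each medium and the media did not overlap.

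*IL10RB* (feature 8068254), the second chain of the receptors for IL-10, IL-22 and the lambda interferons, had its lowest values in starved knockdown cells. Its signals were 8.79, 8.90 and 8.89 in siControl and 8.99, 9.02 and 8.90 in siLAPTM4B cells with 10% FBS. Without serum they were 8.90, 8.67 and 8.85 in siControl and 8.45, 8.75 and 8.63 in siLAPTM4B cells. Neighbouring groups overlapped, but the siLAPTM4B arrays without serum all lay below those with serum.

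The other chains moved little. *IL17RA* (feature 8071069), the common chain of IL-17 receptors, lay between 9.61 and 9.89, and *IL15RA* (feature 7931899), which presents IL-15, between 8.13 and 8.47. *IL20RB* (feature 8082916), a chain of the receptors for IL-19, IL-20 and IL-24, lay between 6.59 and 7.02, around the background level. In these 3 genes all neighbouring groups overlapped.

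**Figure D1:**
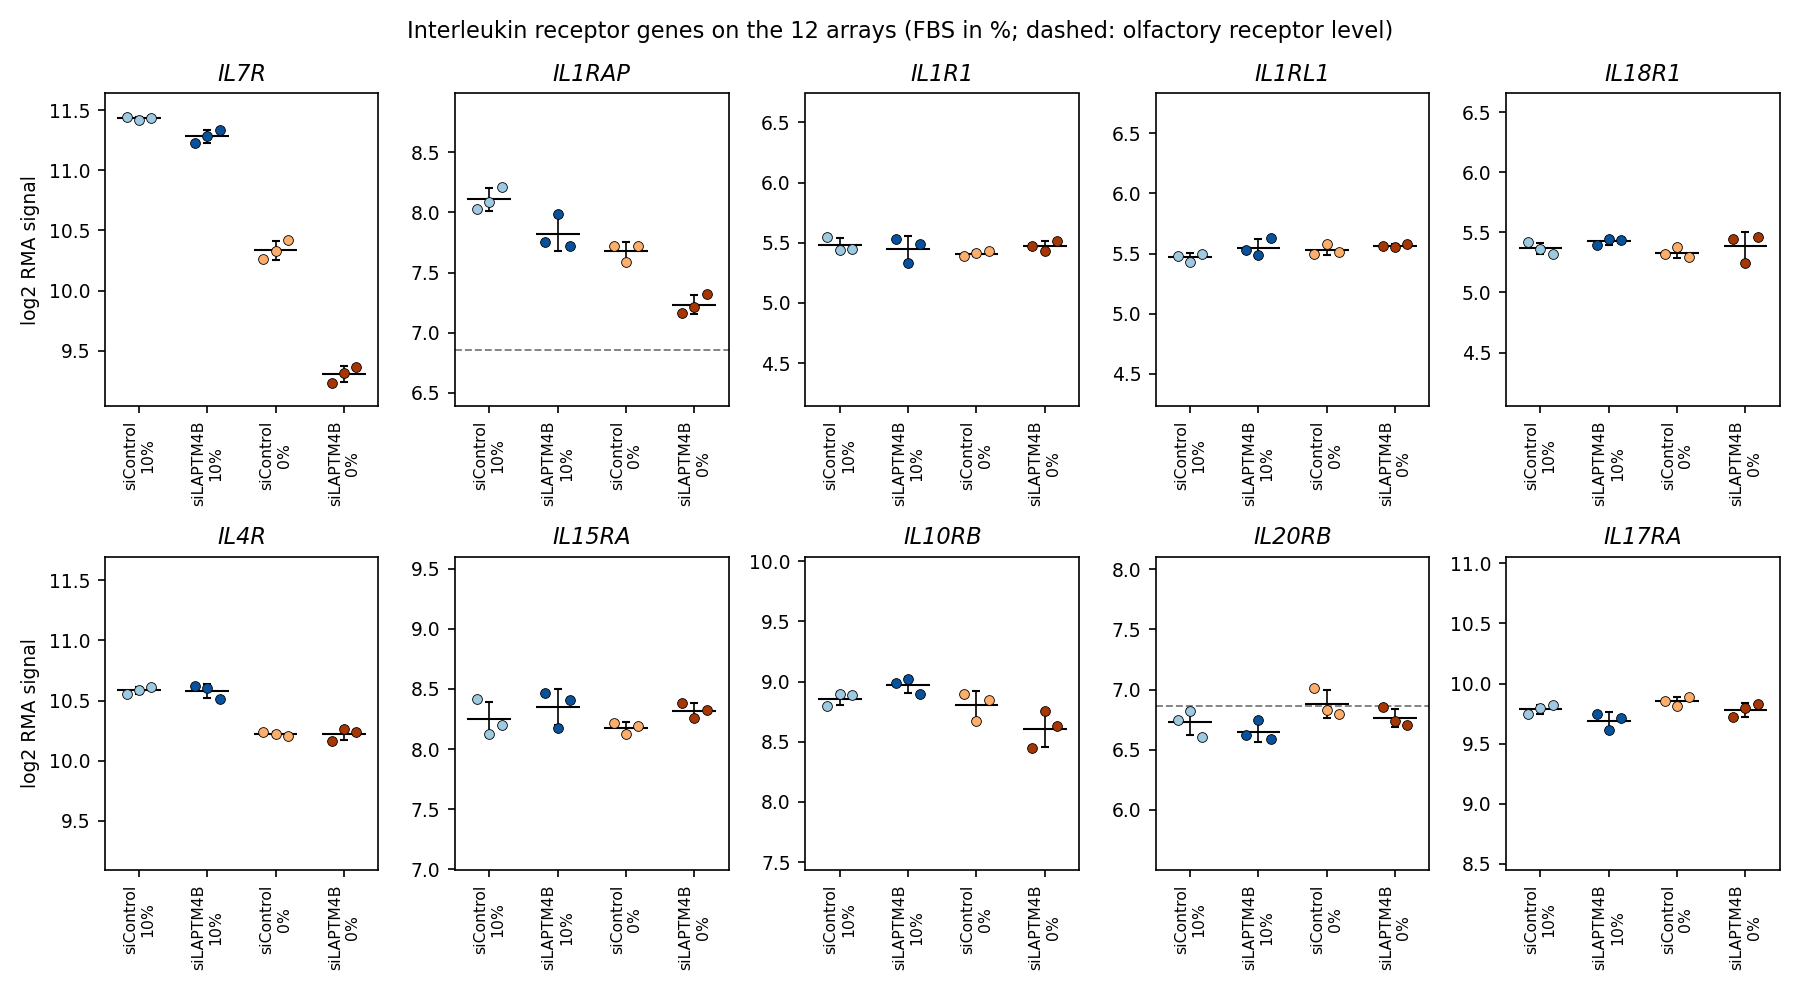
Log2 RMA signal (y axis, 2.6 log2 units in every panel) of the 10 receptor genes on each array (points) of the 4 groups (x axis), with the group mean (line) and SD (bar, n = 3); the dashed line, where it falls within a panel, is the olfactory receptor level of 6.86. *IL7R* steps down through the 4 groups from 11.43 to 9.31, *IL1RAP* from 8.11 to 7.23, and *IL4R* differs between the media only.

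Partner chains from a list written for the pathway (34 further receptor chains) were unevenly present. *IL2RG*, the common gamma chain with which *IL7R* and *IL15RA* signal, and *CRLF2*, its partner for TSLP, had mean signals of 6.50 and 5.78, below the background level. *IL13RA1*, the partner of *IL4R* outside lymphocytes, and *IL17RC*, the partner of *IL17RA*, were above it at 10.11 and 8.83. *IL10RA* and *IL20RA*, partners of *IL10RB* and *IL20RB*, were below it at 6.59 and 6.21, and *IFNLR1*, the lambda interferon partner of *IL10RB*, was above it at 7.54. Of the kinases and factors that these chains use, *JAK1*, *STAT3*, *STAT6* and *MYD88* were above it, at 10.91, 11.07, 11.06 and 10.67.

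The question of the first comparison is whether the receptor genes differ between siLAPTM4B and siControl cells in medium with 10% FBS, on arrays that the choice of genes did not use. None of the 10 genes passed an adjusted p of 0.05 in limma (2 had an unadjusted p under 0.05), where 4.08% of all 19460 features tested did. *IL1RAP* was lower by estimate, with a log2 difference of -0.29 ± 0.08 (SE), a fold of 0.819 and an adjusted p of 0.091. *IL7R* had a log2 difference of -0.15 ± 0.05, a fold of 0.902 and an adjusted p of 0.14. The arrays of siLAPTM4B and siControl cells did not overlap for *IL7R*, *IL1RAP* and *IL17RA*, all lower, 3 of 10 genes against 24.5% of all features; the exact two-sided permutation p of 0.1 is the smallest that 3 arrays against 3 can give. *IL17RA* had a log2 difference of -0.096 ± 0.052. The other 7 genes had estimates between -0.077 and 0.11, with adjusted p from 0.33 to 0.99. For *IL4R* the 95% interval of the log2 difference ran from -0.11 to 0.11. The median over the 10 genes was -0.015 and over all features 0.0043. The calls for the leading pair changed under some settings. With an intensity trend and a robust prior variance *IL7R* and *IL1RAP* passed, at adjusted p of 0.018 and 0.037, and without replicate 2 of siLAPTM4B with 10% FBS *IL1RAP* passed at 0.034, with a log2 difference of -0.37.

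Without serum, the contrast by which *IL7R* and *IL1RAP* were selected, the *IL7R* signal in siLAPTM4B cells was 0.490 times that in siControl cells, a log2 difference of -1.03 ± 0.06 (SE). For *IL1RAP* it was 0.736 times, a log2 difference of -0.44 ± 0.06. No p-value is given here for the 10 genes, since *IL7R* and *IL1RAP* were chosen on these arrays. Of all features 2.33% passed the adjusted p of 0.05. *IL10RB* had a log2 difference of -0.20 ± 0.09, which was -0.12 without replicate 1 of siLAPTM4B, and *IL15RA* had the highest estimate, 0.14 ± 0.05. *IL4R* was at -0.00094 ± 0.045. Groups did not overlap in 4 genes (*IL7R* and *IL1RAP* lower, *IL15RA* and *IL1R1* higher), against 21.3% of features. Nothing is read from that count, since it includes the 2 chosen genes.

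Set side by side, the *IL7R* difference between siLAPTM4B and siControl was -0.15 with serum and -1.03 without, a difference between the media of -0.88 ± 0.07. For *IL1RAP* the values were -0.29 and -0.44, which differed by -0.15 ± 0.11, or by -0.072 without replicate 2 of siLAPTM4B with 10% FBS. For *IL10RB* the estimates had opposite signs, 0.11 with serum and -0.20 without, and differed by -0.31 ± 0.11. For the other 7 genes this difference lay between -0.044 and 0.090. These differences contain the contrast used for the choice and were not tested.

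**Figure D2:**
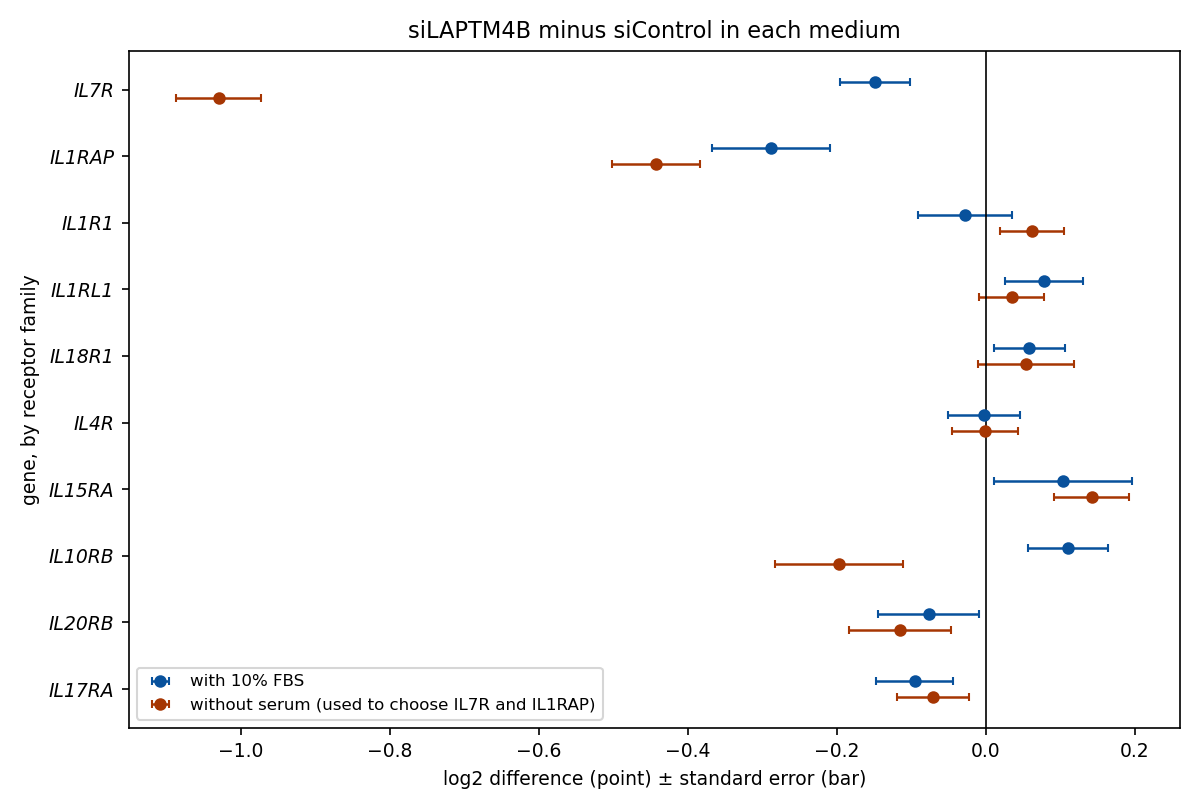
Log2 difference of siLAPTM4B minus siControl (x axis, point) with its standard error (bar, 3 arrays against 3) for each gene (y axis), with 10% FBS (blue) and without serum (brown). *IL7R* stands at -0.15 with serum and -1.03 without, while *IL4R* lies at 0 in both media to within its error.

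The second comparison asks how the receptor genes differ between medium without serum and medium with 10% FBS. The mean of both siRNAs was used over all 12 arrays. With equal group sizes and variances its estimate is uncorrelated with the knockdown difference without serum. The arrays without serum, on which *IL7R* and *IL1RAP* were chosen, still enter its estimates and standard errors. *IL7R*, *IL1RAP*, *IL4R* and *IL10RB* fell, and 0 of the 10 genes rose, so that 4 of 10 passed, against 35.2% of all features. *IL7R* fell by 1.54 on the log2 scale (SE 0.04, adjusted p 4.1e-12), to 0.345 times its level with serum. *IL1RAP* fell by 0.51 (SE 0.05, adjusted p 5.2e-06), to 0.702 times. *IL4R* fell by 0.36 (SE 0.03, adjusted p 7.1e-07), to 0.778 times. *IL10RB* fell by 0.21 (SE 0.05, adjusted p 0.0083), to 0.866 times.

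Of the 6 genes that did not pass, *IL20RB* came closest, with a log2 difference of 0.13 ± 0.05 and an adjusted p of 0.060. It passed at 0.035 when each array was centred on its median, at 0.023 with the replicate number as a block, and at 0.043, 0.038 and 0.036 without replicate 3 of siControl without serum, replicate 2 of siControl with 10% FBS or replicate 2 of siLAPTM4B with 10% FBS. *IL17RA* had a difference of 0.077 ± 0.034 and an adjusted p of 0.10. *IL1RL1*, *IL1R1*, *IL18R1* and *IL15RA* had differences between -0.049 and 0.038. The 95% intervals of these 4 genes stayed between -0.17 and 0.11.

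Within the siRNA groups, *IL7R* without serum was at 0.468 times its level with serum in siControl cells (log2 difference -1.10 ± 0.05) and at 0.254 times in siLAPTM4B cells (-1.98 ± 0.06). *IL1RAP* was at 0.741 times (-0.43 ± 0.06) and 0.666 times (-0.59 ± 0.08). Both share arrays with the contrast used for the choice and were not tested here. Among the other 8 genes, *IL4R* fell in siControl cells by 0.36 (SE 0.04, adjusted p 0.00027), where 26.0% of features passed. In siLAPTM4B cells it fell by 0.36 (SE 0.05, adjusted p 0.0012), where 20.7% of features passed. *IL10RB* fell in siLAPTM4B cells by 0.36 (SE 0.08, adjusted p 0.0091), and its difference in siControl cells was -0.054 ± 0.064 (adjusted p 0.61). Whether *IL10RB* differed between the siRNAs in its response to serum was not tested. The remaining 6 genes passed in neither.

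**Figure D3:**
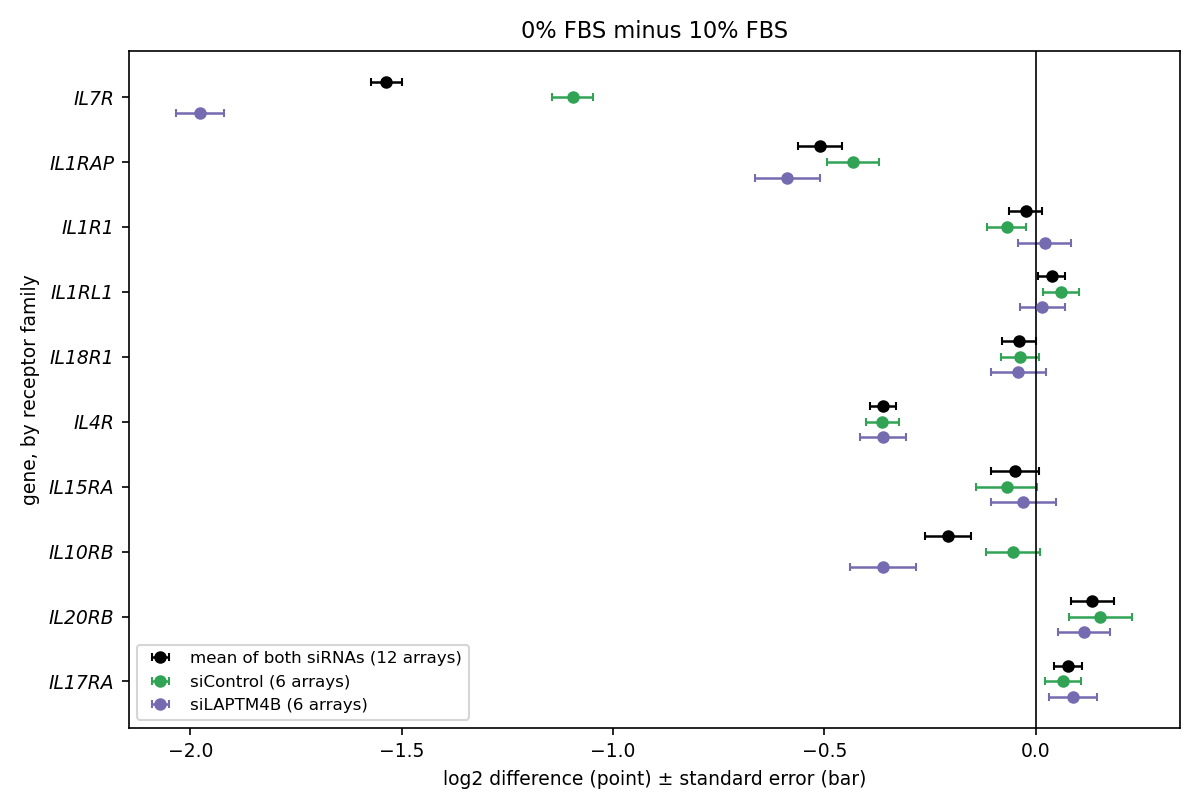
Log2 difference of 0% minus 10% FBS (x axis, point) with its standard error (bar) for each gene (y axis), as the mean of both siRNAs over 12 arrays (black) and within siControl (green) and siLAPTM4B (purple) over 6 arrays each. *IL7R* lies at -1.54 in the mean, -1.10 in siControl and -1.98 in siLAPTM4B, whereas *IL4R* lies at -0.36 in all of them.

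The genes most like *IL7R* over the 12 arrays by Pearson correlation were *PTPN6* (r = 0.990), *MMD* (0.989), *EFNA5* (0.988), *TENM3-AS1* (0.986) and *DNER* (0.984). *PTPN6* encodes the phosphatase SHP-1, an inhibitor of JAK and STAT signalling, *EFNA5* an ephrin ligand and *DNER* a transmembrane protein with EGF repeats. The genes most like *IL1RAP* were *PRCP* (0.986), a lysosomal carboxypeptidase, *AKAP5* (0.981), an anchor of protein kinase A, and *ATP5F1C* (0.981), a subunit of ATP synthase. The group means of *AKAP5*, from 6.07 to 6.69, were below the background level. The correlation of *IL7R* with *IL1RAP* was 0.929, with *IL4R* 0.885 and with *IL10RB* 0.775. The 12 points fall into 4 groups that share an siRNA and a medium, so these values mostly describe the order of the groups, and they are given without a test. The like genes varied less than *IL7R*. The group means of *PTPN6* were 9.47, 9.42, 9.17 and 8.90 in the order in which *IL7R* stepped down, and those of *MMD* were 10.62, 10.46, 10.13 and 9.77.

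**Figure D4:**
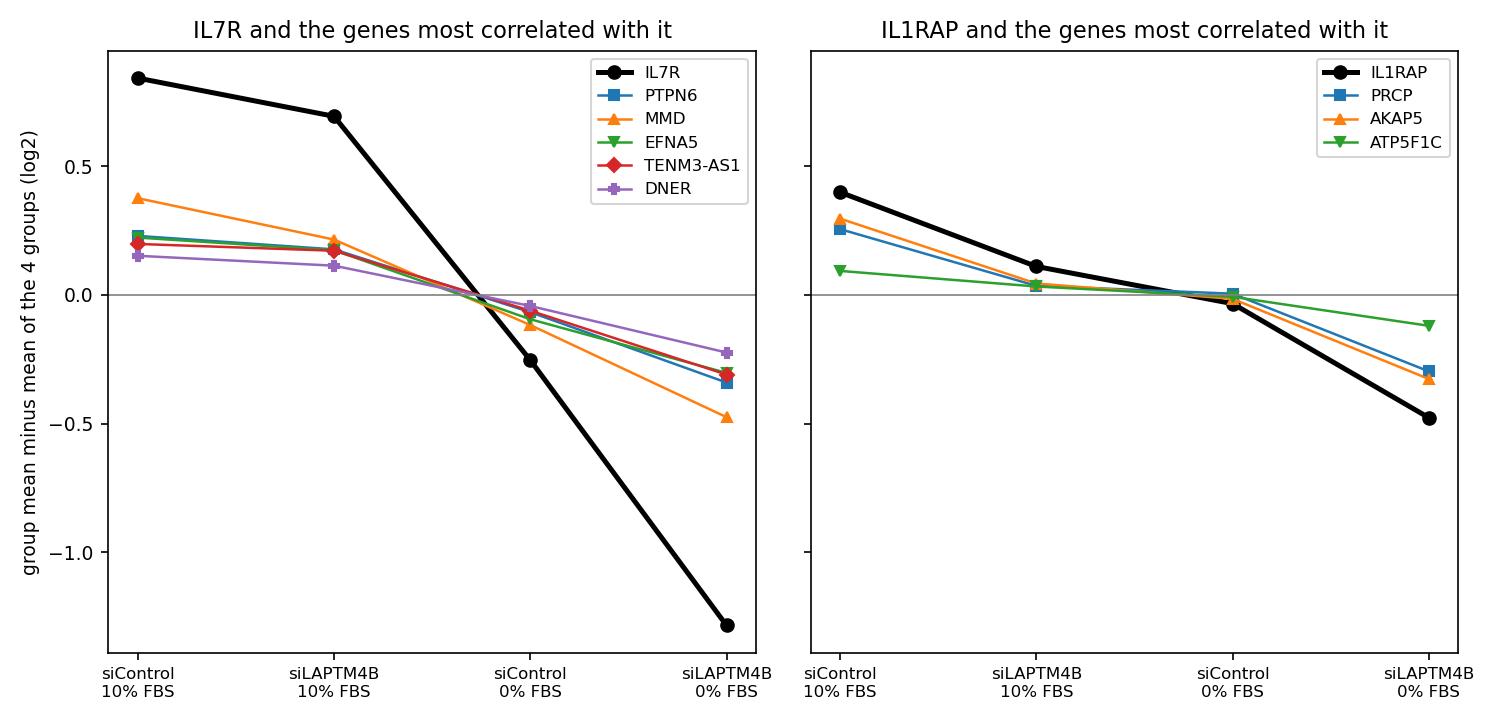
Group mean minus the mean of the 4 groups (y axis, log2) for *IL7R* and the 5 genes most correlated with it (left) and for *IL1RAP* and the 3 most correlated with it (right), over the 4 groups (x axis). All lines step down from siControl with 10% FBS to siLAPTM4B without serum, and that of *IL7R* spans the widest range.

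Around the receptors, a list of 167 pathway genes was examined, of which 157 were measured and 102 were above the background level. With 10% FBS, 9 of the 157 were higher and 3 lower in siLAPTM4B cells, with a median log2 difference of 0.012 against 0.0045 over all genes. Of all features 1.99% were higher and 2.09% lower. Of the 33 ligands and soluble antagonists 0 changed, which includes *IL7*, *TSLP*, *IL1A*, *IL1B* and *IL33*, all below the background level. Of the 33, 10 were above it, among them *IL17B*, *IL17C* and *IL17D* at 8.01, 8.32 and 8.87. The lambda interferon genes *IFNL1*, *IFNL2* and *IFNL3* were also above it, at 7.31, 7.67 and 9.41. Of the 34 other receptor chains 3 rose. *IL17RD*, an inhibitory IL-17 receptor relative, rose by 0.61 (SE 0.05, adjusted p 0.00056), *SIGIRR* by 0.35 (SE 0.07, adjusted p 0.037) and *IL27RA*, the IL-27 receptor, by 0.30 (SE 0.05, adjusted p 0.023). The IL-1 receptor kinase *IRAK2* rose by 0.28 (SE 0.05, adjusted p 0.014), 1 of 32 signal transducers.

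Of the 26 inhibitors only *NFKBIA*, which holds NF-κB in the cytoplasm, passed, with a rise of 0.24 (SE 0.05, adjusted p 0.037). Of the 32 targets 4 rose and 3 fell. The chemokines *CXCL8*, *CCL20* and *CXCL1* rose by 0.51, 0.42 and 0.30 (adjusted p 0.0018, 0.030 and 0.032). *PTGS2*, the inducible cyclooxygenase, fell by 0.70 (SE 0.05, adjusted p 0.00046), the repressor *BCL6* by 0.28 (adjusted p 0.012) and the kinase *PIM1* by 0.24 (adjusted p 0.030). *CCL20* was below the background level at a mean of 5.90. Several of these calls sit close to the threshold, and the pathway count of 12 dropped to between 3 and 7 when any single array was left out, being 3 without replicate 2 of siControl with 10% FBS.

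Without serum 3 of the 157 genes were higher and 8 lower in siLAPTM4B cells, with a median of -0.0056. Of all features 0.591% were higher and 1.74% lower. *IL17RD* and *SIGIRR* rose again, by 0.33 and 0.35 (adjusted p 0.0061 and 0.013). *PTGS2* fell by 1.21 (SE 0.09, adjusted p 0.00086). *PTPN6* fell by 0.27 (SE 0.04). Its p-value is left out, since *PTPN6* also heads the genes most like *IL7R* over these arrays. The count of 11 dropped to between 2 and 6 when a single array was left out, being 2 without replicate 1 or replicate 3 of siControl.

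Between the media, averaged over both siRNAs, 29 of the 157 genes were higher and 29 lower without serum, with a median of -0.0051 against -0.011 over all genes. Of all features 16.4% were higher and 18.8% lower, so the pathway count of 58 is near the background. Among the ligands *TSLP*, which signals through *IL7R* and *CRLF2*, rose by 0.12 (adjusted p 0.020), and *IL18* and *IL13* fell by 0.35 and 0.13 (adjusted p 7.7e-05 and 0.012), with all 3 below the background level. Group means of *TSLP* with 10% FBS and without serum were 6.37 and 6.56 in siControl but 6.35 and 6.41 in siLAPTM4B cells. For *IL13* they were 6.75 and 6.53, and 6.82 and 6.79. The *TSLP* call was lost in 5 of 16 alternatives, with an adjusted p of up to 0.056. Of the other receptor chains 5 rose and 6 fell. *IL17RD*, *IL27RA* and *IFNLR1* rose by 0.58, 0.49 and 0.31. *IL2RB*, a chain of the IL-2 and IL-15 receptors, fell by 0.60 (SE 0.06, adjusted p 6.3e-06), and *IL1RAPL1* and *IL13RA2*, both below the background level, fell by 0.37 and 0.34. *IL13RA1*, which pairs with *IL4R*, fell by 0.28 (SE 0.04), so that both chains of that receptor were lower without serum.

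Of the signal transducers 12 rose and 8 fell. *NFKB2*, *IRAK2* and *IRS2* rose by 0.33, 0.32 and 0.31, and *IRS1*, *STAT4* (below the background level) and *TAB3* fell by 0.73, 0.60 and 0.38. *IRS1* and *IRS2* are docking proteins that *IL4R* shares with the insulin receptor, and they moved in opposite directions. Of the inhibitors 5 rose, led by *TNIP1*, *SOCS4* and *SOCS2* at 0.24, 0.18 and 0.17, and 7 fell, led by *TNFAIP3* (below the background level), *PTPN6* and *SOCS3* with falls of 0.46, 0.41 and 0.41. Of the targets 6 rose and 6 fell. *NFKBIZ*, *LIF* and *CXCL8* rose by 0.62, 0.37 and 0.34, while *PTGS2*, *SOD2* and *CXCL2* fell by 1.61, 0.26 and 0.17.

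*PTGS2*, a gene that IL-1 induces in many cells, had group means of 11.54, 10.85, 10.19 and 8.98 in the order in which *IL7R* and *IL1RAP* stepped down. Its arrays with 10% FBS read 11.48, 11.58 and 11.57 in siControl and 10.84, 10.88 and 10.83 in siLAPTM4B cells, and without serum 10.19, 10.06 and 10.31 in siControl and 8.82, 8.99 and 9.13 in siLAPTM4B cells. As with *IL7R*, no groups overlapped. Other listed targets moved in both directions. With 10% FBS 4 of the 32 targets rose and 3 fell in siLAPTM4B cells, *CXCL8*, *CCL20* and *CXCL1* rising by 0.51, 0.42 and 0.30. Between the media, averaged over both siRNAs, 6 rose and 6 fell without serum, *NFKBIZ* rising by 0.62. *IL1A*, *IL1B* and *IL1R1* were below the background level. Whether *PTGS2* followed IL-1 signalling was not tested.

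**Figure D5:**
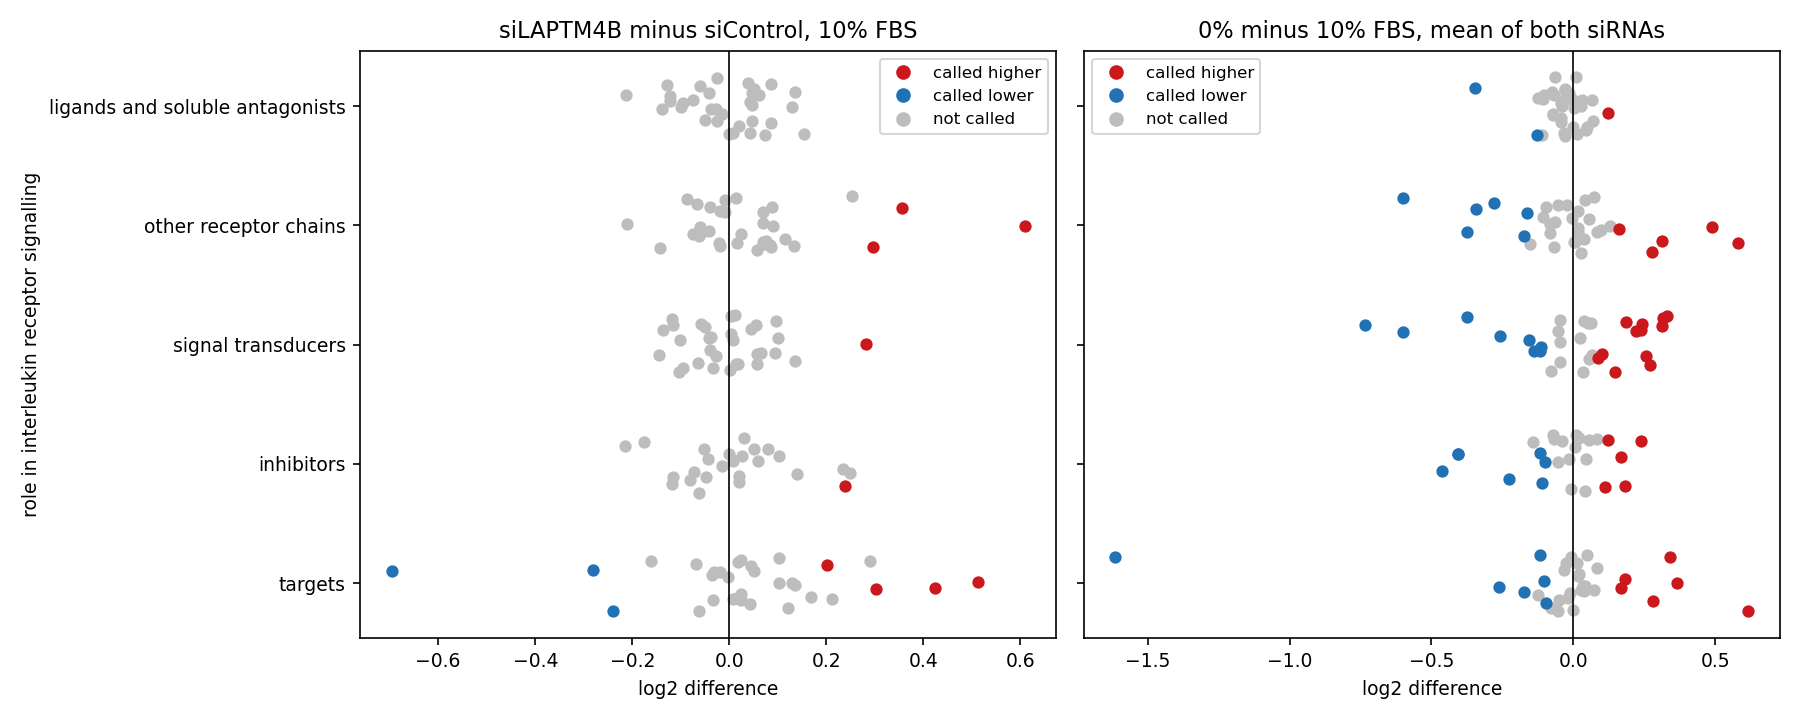
Log2 difference (x axis) of each measured pathway gene (point, n = 157) by its role (y axis; the vertical scatter within a role has no meaning), for siLAPTM4B minus siControl with 10% FBS (left) and for 0% minus 10% FBS averaged over both siRNAs (right). Genes with an adjusted p under 0.05 are red where higher and blue where lower, 9 and 3 on the left and 29 and 29 on the right; the point farthest left in both panels is *PTGS2*.

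Since *IL7R* is known from lymphocytes, markers of other cells were read in the same arrays. *PTPRC*, the leukocyte common antigen, had a mean of 5.25, and *CD2*, *CD3D*, *CD3E*, *CD3G*, *CD4*, *MS4A1* and *FCGR3A* were also below the background level. Of 17 leukocyte markers measured, 9 were above it. They were the lymphocyte markers *CD8A*, *CD79A* and *LCK*, at 7.36, 7.62 and 7.58, and *CD14*, *CD68*, *ITGAM*, *NCAM1*, *TYROBP* and *LAPTM5*. The mean of the list ranged from 7.29 to 7.46 over the 12 arrays. The epithelial keratins *KRT8* and *KRT18* stood at 12.89 and 12.23 and *VIM* at 13.23, while *CDH1* was below the background level at 6.21. *VIM* is on the list of 10 markers for epithelial and carcinoma cells. The mean of this list ranged from 9.45 to 9.54 with 10% FBS and from 9.34 to 9.40 without serum. Within that list the keratin *KRT7* had group means of 11.14, 11.04, 9.51 and 9.14 in the order in which *IL7R* stepped down. The adhesion molecule *EPCAM* went the other way, with 8.37, 8.88, 9.46 and 9.67.

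Of 8 fibroblast markers 6 were above the background level. The mean of that list ranged from 7.37 to 7.49 in siControl and 7.25 to 7.34 in siLAPTM4B cells with 10% FBS, and from 6.98 to 7.01 and 6.86 to 6.95 without serum. *LUM* had group means of 9.03, 8.50, 7.15 and 6.65, and *PDGFRB* of 9.27, 8.92, 8.08 and 7.69, in the order in which *IL7R* stepped down. The other fibroblast markers above the background level did not step down in that order. Group means in it were 7.25, 7.22, 7.19 and 7.32 for *COL1A2* and 7.58, 7.55, 7.73 and 7.57 for *COL3A1*. For *THY1* they were 7.03, 7.00, 6.95 and 7.02. *COL1A1* ranged from 8.47 to 8.72 over the arrays, and *DCN* and *FAP* were below the background level. The part of these genes, *KRT7* and *EPCAM* included, in the *IL7R* result was not tested. Bulk RNA does not tell fewer cells that carry a transcript from less of it per cell.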

How the data were processed

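RNA of Calu-6 cells was hybridized to 12 arrays, 3 biological replicates in each of 4 groups taken from the sample labels. As deposited, each value is a log2 signal after Robust Multichip Array normalization, run by the authors in BRB-ArrayTools. The annotation version and genome build are not given in the sources used here. Of 33252 features, 19460 carry 1 gene symbol, 1754 several and 12038 none; 0 value columns were unmapped. RMA equalizes the distribution between arrays, so a shift shared by most genes would not show.

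Each comparison was fitted over the 19460 features in limma 3.58.1 (R 4.3.3) with 1 prior variance and adjusted by Benjamini-Hochberg over them. A gene passed where its adjusted p was below 0.05. Comparisons within a medium or an siRNA used their 6 arrays, and those averaged over siRNAs, or between media, used 12. The scripts were tested on simulated data. Promoters came from RefSeq (GRCh38.p14).

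The genes, pathway lists and marker lists were chosen with earlier results of these data known. Named genes were the 10 receptors, *LAPTM4B*, up to 3 called genes with the largest change per role and direction with 10% FBS and between the media, the 5 and 3 genes most correlated with *IL7R* and *IL1RAP*, and markers. Exceptions, named after their values were seen for their link to a receptor, were *PTPN6*, *PTGS2*, *IL17RD* and *SIGIRR* without serum, *IL13RA1* between the media, *PTGS2* by array, and the levels of partner chains and transducers. Alternatives were the methods' t-test (Student's, named there beside ANOVA for in vitro work, run adjusted and at the array threshold of an unadjusted p under 0.01), all features, low features left out, median centring, an intensity trend with a robust prior variance, 1 fit over 12 arrays, a replicate block and each array left out. The number of arrays limits the precision.

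Deviations of same-numbered arrays from their group means were correlated over all features, for numbers 1, 2 and 3 in turn. Between the media the values were 0.263, 0.115 and 0.153 in siControl and 0.240, 0.122 and -0.0997 in siLAPTM4B cells. Between siLAPTM4B and siControl they were 0.276, 0.0456 and 0.0497 without serum and 0.298, 0.161 and -0.0210 with 10% FBS. Between starved siLAPTM4B cells and siControl cells with 10% FBS they were 0.358, 0.109 and 0.186. Number 1 thus gave 0.138 or more in every pair of groups, while numbers 2 and 3 ranged from -0.0997 to 0.186. The main fits took the arrays as unpaired, and the labels name no shared batch.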

Additional observations from a re-analysis of the deposited data

How the results depend on the processing

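Of 1585 values recomputed under the alternatives, 1495 stayed on their side of the threshold or, for counts and values without a test, near the value given. Log2 differences without a test could change only with median centring or an array left out, since the other settings leave the estimate as it was. No value that passed its test turned direction, while small estimates that did not pass, or had no test, changed sign under some settings, such as *IL1R1* with 10% FBS, which ranged from -0.069 to 0.032. The serum-averaged falls of *IL7R* and *IL1RAP* passed under every alternative run, between -1.56 and -1.52 and between -0.53 and -0.47 on the log2 scale, and 4 to 5 of the 10 genes passed, the fifth being *IL20RB*.

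With 10% FBS the count of receptor genes that passed between siLAPTM4B and siControl went from 0 to 2 with an intensity trend and a robust prior variance (*IL7R* -0.15 and *IL1RAP* -0.29, estimates that this setting leaves as they were) and to 1 with a single fit over all 12 arrays (*IL1RAP* -0.29, adjusted p 0.036). It was 0 to 1 with an array left out, where *IL1RAP* ranged from -0.37 to -0.24. Pathway genes that passed numbered 12 with 10% FBS, 4 with all features, 4 by the methods' t-test after Benjamini-Hochberg adjustment (12 at an unadjusted p under 0.01), 3 to 7 with an array left out, and 16 both with the intensity trend and with the single fit. Without serum they numbered 11, and 2, 1 (14 unadjusted), 2 to 6, 15 and 14 under the same settings. In siLAPTM4B cells the receptor genes other than *IL7R* and *IL1RAP* that passed between the media went from 2 to 1 by that t-test, both after adjustment (*IL10RB* 0.095) and at an unadjusted p under 0.01. Where these counts changed, the cause was not tested.

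With the replicate block 0 receptor genes and 12 pathway genes passed with 10% FBS, 12 pathway genes passed without serum, and the only receptor call it changed was that of *IL20RB* between the media. A second feature per gene could not be tried, since each receptor gene has 1. The arrays carry no detection call, so signals near the olfactory receptor level set no lower bound on expression, and 3 arrays a group limit what differences can pass.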
